A study of Homo sapiens with 4 samples.

Results

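Peroxisome biogenesis genes and genes of peroxisomal enzymes were examined in the myeloma line ARP-1 (human). The set was chosen by symbol and held 33 genes, of which 31 had a row among the 15201 genes of the deposited table, 11 peroxins and 20 enzymes. PEX5 and DECR2 are not analysed here. RNA sequencing compared ARP-1 cells resistant to carfilzomib, a proteasome inhibitor (CfzR, n = 2 libraries), with wild-type cells of the line (WT, n = 2 libraries). The labels do not say how resistance was selected, whether the resistant cells are 1 clone, whether drug was present at harvest, or whether the replicates are separate cultures; the p-values therefore speak only of variation among these 4 libraries, possibly technical. The study's design text names changes in cholesterol and lipid metabolism, and CROT, a peroxisomal carnitine acyltransferase encoded in chromosome band 7q21, is higher in CfzR. The comparison asks whether a wider peroxisomal programme moves with it.

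Peroxisomes are single-membrane organelles that shorten very-long-chain and branched fatty acids, start the synthesis of ether phospholipids and break down hydrogen peroxide. Peroxins, the PEX proteins, place membrane proteins in the organelle, carry enzymes across its membrane and recycle the import receptors. CROT transfers medium-chain products of peroxisomal beta-oxidation to carnitine for export toward mitochondria. Hepatocytes are rich in peroxisomes, and most other cells hold fewer of them.

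The 31 members showed no shift comparable with that of CROT. CROT had 45.0 and 41.1 FPKM in CfzR against 2.59 and 2.51 FPKM in WT (FPKM counts sequenced fragments relative to transcript length and library size). It averaged 43.0 ± 2.77 FPKM in CfzR and 2.55 ± 0.0568 FPKM in WT (SD, n = 2 each), which is 16.9-fold higher in CfzR, with a log2 fold change of 3.63 (SE 0.19, limma adjusted p = 5.25e-04). Among the members, 0 of 31 passed an adjusted p of 0.05 in limma in either direction, and 0.350% of the 13411 genes tested passed. The log2 fold changes of the members lay between -0.52 for PEX6 and 0.55 for SLC27A2. In bulk libraries a change in every cell and a change in a share of the cells cannot be told apart.

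The 95% intervals bound what these libraries allow for each gene. For 29 of the 31 members the interval of the log2 fold change lay within -1 to 1, as it did for 70.0% of all genes tested. The exceptions were SLC27A2, with -0.05 to 1.15, and PRDX5, with -1.19 to 0.43. The interval for CROT was 3.18 to 4.08, so no member's interval reached it. CROT stood at rank 30 of 32 by mean level per length among the members and itself in WT, and at rank 7 in CfzR.

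**Figure D1:**
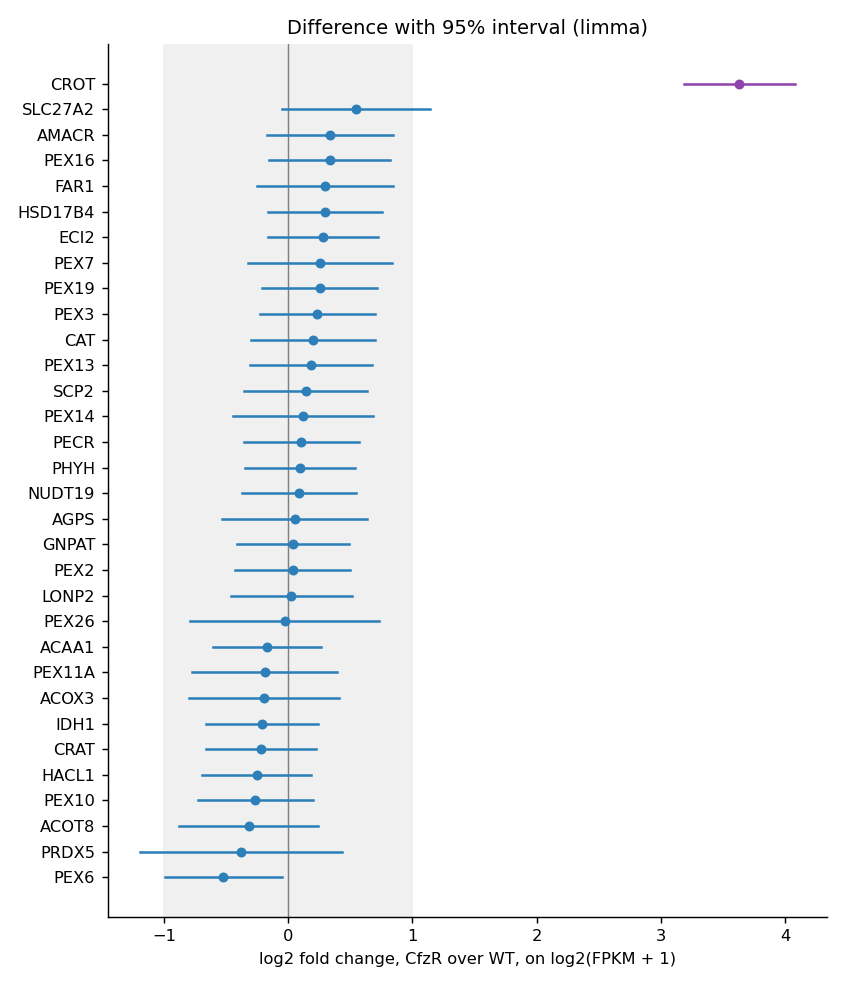
Log2 fold change of CfzR over WT on the log2(FPKM + 1) scale (x axis) for CROT and the 31 members (y axis), as points with 95% intervals from limma; the grey band spans -1 to 1. The members lie between -0.52 and 0.55, and CROT stands apart at 3.63.

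Promoter sequences are shown for CROT, for CAT, the classic marker enzyme of peroxisomes, and for SLC27A2, the member with the largest log2 fold change, to set the regulatory letters next to the expression values. Each line gives the 250 bases before the gene start from RefSeq (GRCh38.p14), 5′ to 3′ on the plus strand, at chr7:87345414-87345663 for CROT, chr11:34438684-34438933 for CAT and chr15:50181946-50182195 for SLC27A2. Capitals mark matches on either strand to GGGCGG, the core of a GC box, and to CCAAT.
CROT: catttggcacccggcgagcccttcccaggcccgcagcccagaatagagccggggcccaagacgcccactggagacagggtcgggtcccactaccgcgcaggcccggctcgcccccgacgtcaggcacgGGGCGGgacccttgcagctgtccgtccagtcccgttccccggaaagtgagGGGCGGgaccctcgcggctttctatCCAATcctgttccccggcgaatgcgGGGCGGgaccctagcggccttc
CAT: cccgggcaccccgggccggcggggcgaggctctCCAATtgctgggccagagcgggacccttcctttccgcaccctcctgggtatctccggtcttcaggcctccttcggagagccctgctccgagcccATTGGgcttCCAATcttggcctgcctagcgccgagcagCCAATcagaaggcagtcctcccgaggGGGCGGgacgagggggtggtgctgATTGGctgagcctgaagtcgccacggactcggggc
SLC27A2: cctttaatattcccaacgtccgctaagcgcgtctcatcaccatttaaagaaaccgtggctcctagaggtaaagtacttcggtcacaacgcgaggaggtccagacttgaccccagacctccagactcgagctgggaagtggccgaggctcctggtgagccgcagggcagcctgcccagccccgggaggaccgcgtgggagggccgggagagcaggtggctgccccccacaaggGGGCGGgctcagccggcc

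The CROT stretch held 3 matches to GGGCGG and 1 to CCAAT, that of CAT held 1 and 5, and that of SLC27A2 held 1 and 0. RefSeq promoters were matched by symbol for 27 of the 31 members. GGGCGG occurred in 18 of these 27 (66.7%), against 64.7% of the 12914 promoters of genes tested and 42.6% of all 35116 promoters. CCAAT occurred in 10 of 27, which is 37.0%, against 33.5% of promoters of genes tested and 32.0% of all promoters. Peroxisome proliferator-activated receptors (PPARs) bind direct repeats of AGGTCA with a spacer base. The exact repeat AGGTCANAGGTCA was found in 0 of the 27 member promoters and in 0.0171% of all promoters, so these letters are rare in such windows. The single half-site AGGTCA occurred in 1 of the 27 member promoters (3.70%), that of AGPS, against 8.87% of promoters of genes tested and 12.1% of all promoters. These matches describe letters only.

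The 31 members spanned a wide range of levels per length. PRDX5, an antioxidant peroxiredoxin found in peroxisomes, mitochondria and cytosol, was the highest, with 444 and 721 FPKM in CfzR against 648 and 836 FPKM in WT. PEX11A was among the lowest, with 1.09 and 0.969 FPKM in CfzR against 1.31 and 1.31 FPKM in WT. The median member level over the 4 libraries was 18.2 FPKM, against 10.4 FPKM over all genes tested. The highest library stood at a median of 1.34 times the lowest among members and 1.58 times among all genes tested.

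**Figure D2:**
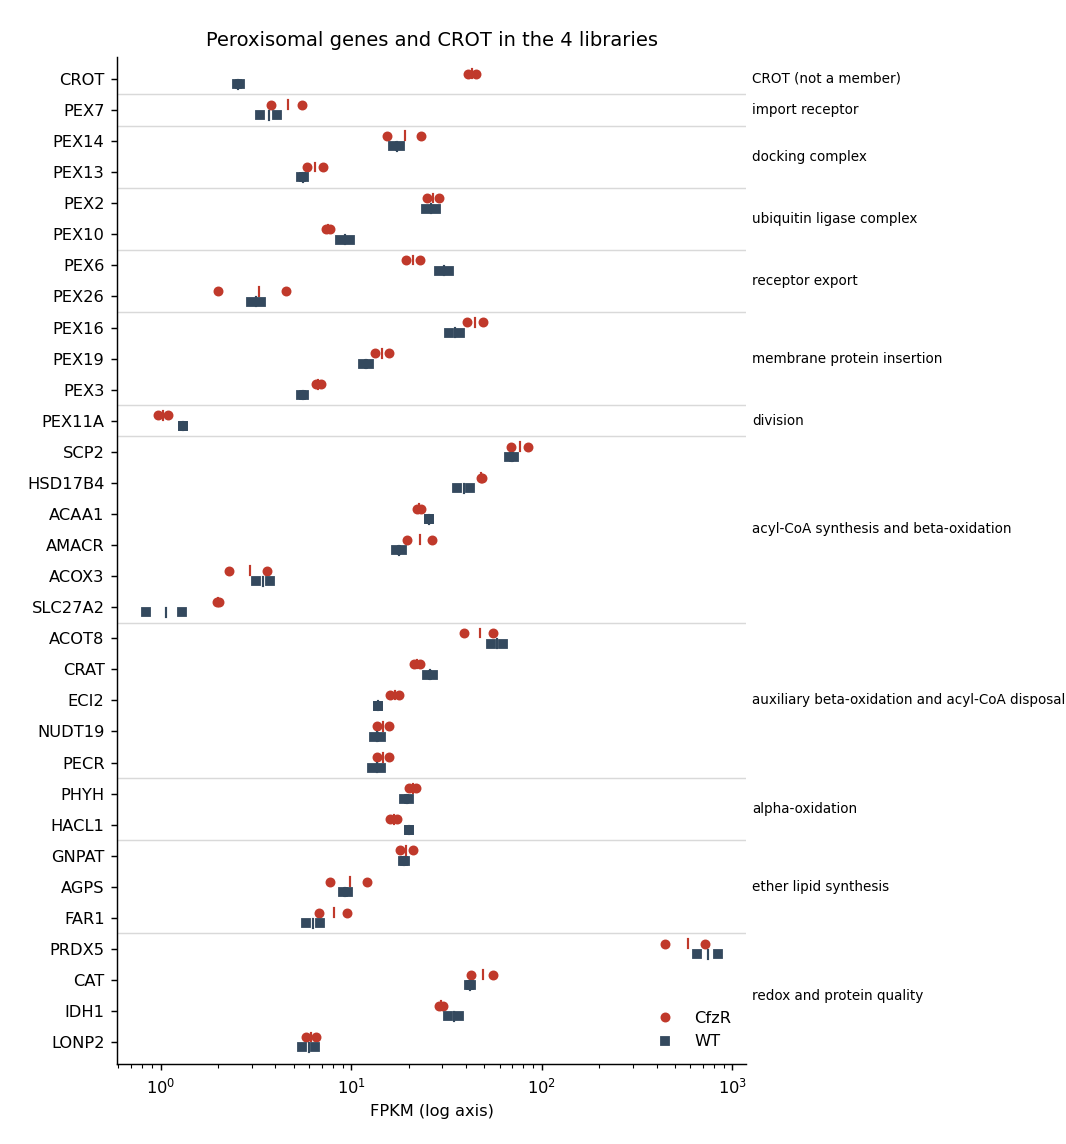
FPKM (x axis, log scale) of CROT and of the 31 members (y axis, grouped by role) in each library; red circles are the CfzR libraries, dark squares the WT libraries and short vertical bars the group means (n = 2 each). CROT stands at 43.0 FPKM in CfzR, against 2.55 FPKM in WT, while the points of both groups lie close together for the members.

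Import of matrix enzymes begins with cytosolic receptors and a docking complex. PEX7, the receptor for enzymes with an amino-terminal targeting signal, had 3.78 and 5.52 FPKM in CfzR against 4.07 and 3.32 FPKM in WT. PEX14, the central docking protein, had 15.4 and 23.1 FPKM in CfzR against 16.6 and 17.9 FPKM in WT. In both genes the CfzR libraries lay on either side of at least 1 WT library, so the groups overlapped. Its docking partner PEX13 had 7.09 and 5.82 FPKM in CfzR against 5.46 and 5.64 FPKM in WT, without overlap (log2 fold change 0.18, SE 0.21, limma adjusted p = 0.743). Groups without overlap are common in these data, at 44.7% of all genes tested, 22.1% with CfzR higher and 22.6% with CfzR lower.

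PEX2 and PEX10 are subunits of the membrane ubiquitin ligase that marks import receptors for recycling. PEX2 had 28.9 and 25.0 FPKM in CfzR against 24.6 and 27.8 FPKM in WT. PEX10 had 7.34 and 7.76 FPKM in CfzR against 8.69 and 9.89 FPKM in WT. The groups overlapped for PEX2, and both CfzR libraries were below both WT libraries for PEX10 (log2 fold change -0.27, SE 0.20, limma adjusted p = 0.622).

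PEX6, an ATPase that pulls ubiquitinated receptors out of the membrane, gave the largest negative log2 fold change of the set. It had 19.3 and 22.9 FPKM in CfzR against 29.0 and 32.4 FPKM in WT, and both CfzR libraries were below both WT libraries. It averaged 21.1 ± 2.55 FPKM in CfzR and 30.7 ± 2.42 FPKM in WT (SD, n = 2 each; log2 fold change -0.52, SE 0.20, limma adjusted p = 0.403). It was the 1 member with an unadjusted p under 0.05, which 11.1% of all genes tested reached. PEX26, the membrane anchor of the PEX6 complex, had 4.56 and 2.01 FPKM in CfzR against 3.38 and 2.98 FPKM in WT, so the CfzR libraries lay above and below both WT libraries. Where strand was not used in counting, which is not given in the sources used here, reads of the opposite-strand gene GNMT could enter the PEX6 value. TUBA8 shares exonic sequence with PEX26 on the same strand.

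The 3 peroxins that insert membrane proteins, PEX3, PEX16 and PEX19, each had both CfzR libraries above both WT libraries. The same held for 22.1% of all genes tested. PEX16, which recruits PEX3 to the membrane, had 40.2 and 49.1 FPKM in CfzR against 37.4 and 32.7 FPKM in WT. PEX19, the soluble chaperone of membrane proteins, had 15.7 and 13.3 FPKM in CfzR against 12.4 and 11.6 FPKM in WT. PEX3, its docking site on the membrane, had 6.95 and 6.51 FPKM in CfzR against 5.47 and 5.65 FPKM in WT. Their log2 fold changes were 0.34 for PEX16, 0.25 for PEX19 and 0.24 for PEX3, and none passed (limma adjusted p from 0.561 to 0.659). With each library corrected for transcript length and GC share, the values were 0.51 for PEX16, 0.17 for PEX19 and 0.042 for PEX3. PEX11A, which acts in peroxisome division, had a log2 fold change of -0.19 (SE 0.25, limma adjusted p = 0.774). Over the 11 peroxins the median log2 fold change was 0.12, with 7 positive and 4 negative.

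Among enzymes that activate and shorten fatty acids, SLC27A2, a very-long-chain acyl-CoA synthetase, had the largest log2 fold change of all members. It had 2.03 and 1.98 FPKM in CfzR against 0.836 and 1.30 FPKM in WT. It averaged 2.003 ± 0.0382 FPKM in CfzR and 1.07 ± 0.326 FPKM in WT, without overlap (SD, n = 2 each; log2 fold change 0.55, SE 0.25, limma adjusted p = 0.485). At these low levels the log2(FPKM + 1) scale understates the ratio of mean FPKM, which was 1.88. With a pseudocount of 0.1 its log2 fold change was 0.88 and did not pass either.

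ACOX3, the oxidase for branched acyl-CoAs, had 2.29 and 3.60 FPKM in CfzR against 3.16 and 3.77 FPKM in WT, with overlap. HSD17B4, the multifunctional enzyme of the next steps, had 48.3 and 47.8 FPKM in CfzR against 42.1 and 36.0 FPKM in WT. ACAA1, the thiolase that ends the cycle, had 22.0 and 23.2 FPKM in CfzR against 25.5 and 25.6 FPKM in WT. The groups did not overlap for HSD17B4 or ACAA1. These genes stood in opposite directions in one pathway, with log2 fold changes of 0.30 and -0.17 (limma adjusted p = 0.580 and 0.728). With each library corrected for transcript length and GC share, the values were 0.089 for HSD17B4 and -0.23 for ACAA1. SCP2, which carries a thiolase for branched chains, had 85.0 and 69.2 FPKM in CfzR against 71.7 and 67.2 FPKM in WT, with overlap. AMACR, the racemase of branched acyl-CoAs, had 26.4 and 19.7 FPKM in CfzR against 17.1 and 18.6 FPKM in WT (log2 fold change 0.34, SE 0.21, limma adjusted p = 0.568). AMACR shares exons with a read-through gene, so its value is uncertain.

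The remaining acyl-CoA enzymes stood on both sides of 0. ECI2, an enoyl-CoA isomerase for unsaturated fatty acids, had 16.1 and 17.8 FPKM in CfzR against 13.8 and 13.8 FPKM in WT (log2 fold change 0.28, SE 0.19, limma adjusted p = 0.588). CRAT, the short-chain carnitine acyltransferase and a relative of CROT, had 23.0 and 21.2 FPKM in CfzR against 25.0 and 26.7 FPKM in WT (log2 fold change -0.22, SE 0.19, limma adjusted p = 0.667). CRAT therefore stood lower in both CfzR libraries, where CROT stood higher, and its 95% interval of -0.66 to 0.22 lay below 1. ACOT8, a thioesterase that releases fatty acids from coenzyme A, had 39.1 and 55.2 FPKM in CfzR against 53.9 and 62.8 FPKM in WT, with overlap. PECR, an enoyl-CoA reductase, and NUDT19, a coenzyme A hydrolase, had log2 fold changes of 0.11 and 0.09 with overlapping groups.

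Alpha-oxidation removes the terminal carbon of phytanic acid, whose methyl branch blocks beta-oxidation. PHYH, its hydroxylase, had 20.1 and 21.9 FPKM in CfzR against 19.0 and 20.1 FPKM in WT, with overlap. HACL1, the lyase of the following step, had 16.1 and 17.5 FPKM in CfzR against 20.1 and 20.2 FPKM in WT, without overlap (log2 fold change -0.25, SE 0.19, limma adjusted p = 0.622).

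Ether lipid synthesis starts with GNPAT and AGPS inside the peroxisome and with FAR1, the fatty acyl-CoA reductase on its surface. GNPAT had 21.0 and 18.0 FPKM in CfzR against 18.8 and 19.0 FPKM in WT. AGPS had 12.1 and 7.71 FPKM in CfzR against 9.01 and 9.58 FPKM in WT. FAR1 had 9.45 and 6.73 FPKM in CfzR against 5.82 and 6.82 FPKM in WT. The groups overlapped in all 3 genes, and for AGPS the CfzR libraries lay above and below both WT libraries.

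Of the redox and quality-control genes, CAT, the catalase that removes hydrogen peroxide, had 55.6 and 42.6 FPKM in CfzR against 42.7 and 41.7 FPKM in WT. The second CfzR library of CAT lay between the WT libraries, so the groups overlapped (log2 fold change 0.20, SE 0.21, limma adjusted p = 0.722). IDH1, a source of NADPH in cytosol and peroxisomes, had 30.4 and 28.9 FPKM in CfzR against 32.1 and 36.8 FPKM in WT, without overlap (log2 fold change -0.21, SE 0.19, limma adjusted p = 0.684). LONP2, the peroxisomal protease, had 6.49 and 5.76 FPKM in CfzR against 6.45 and 5.55 FPKM in WT, with overlap. Over the 20 enzymes the median log2 fold change was 0.071, with 13 positive and 7 negative.

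Counted together, 8 of the 31 members had both CfzR libraries above both WT libraries and 7 had both below, against 22.1% and 22.6% of all genes tested. The 48.4% of members without overlap stood near the 44.7% of all genes tested. An absolute log2 fold change over 0.5 was seen in 2 members, or 6.45%, against 18.8% of all genes tested. Positive log2 fold changes were seen in 20 of 31 members (64.5%) and in 47.1% of all genes tested. The median log2 fold change was 0.090 over the members and -0.024 over all genes tested.

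**Figure D3:**
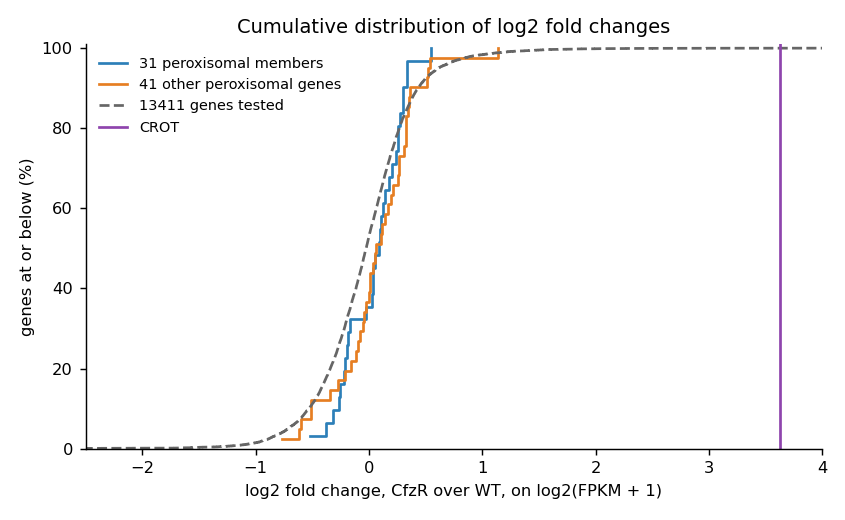
Cumulative share of genes (y axis, percent) at or below a log2 fold change of CfzR over WT on the log2(FPKM + 1) scale (x axis, extremes not shown), for the 31 members, 41 other peroxisomal genes and all 13411 genes tested; the vertical line marks CROT. The member curve lies between -0.52 and 0.55, near the middle of the curve of all genes, and CROT lies at 3.63.

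This small positive median moved with 1 library. Relative to the WT mean, the members' median was 0.14 in CfzR replicate 1 and -0.0054 in CfzR replicate 2, against -0.048 and 0.0010 for all genes tested. Across the 31 members, the gap between CfzR replicates 1 and 2 was more positive for longer transcripts (Spearman 0.563, a description over genes of the same libraries). The value was 0.466 over 12896 genes tested, and 0.0758 for the gap between the WT replicates over the members. PRDX5, the shortest at 893 bases, was lower in CfzR replicate 1 than in replicate 2 by 0.70 on the log2 scale, and PEX26, the longest at 18445 bases, was higher by 0.89. After each library was corrected for transcript length and GC share, the median was -0.040 over the members and -0.038 over all genes tested. Positive log2 fold changes then numbered 14 of 31 members, and 15 of 31 without CfzR replicate 1. CROT kept a log2 fold change of 3.49 under this correction.

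**Figure D4:**
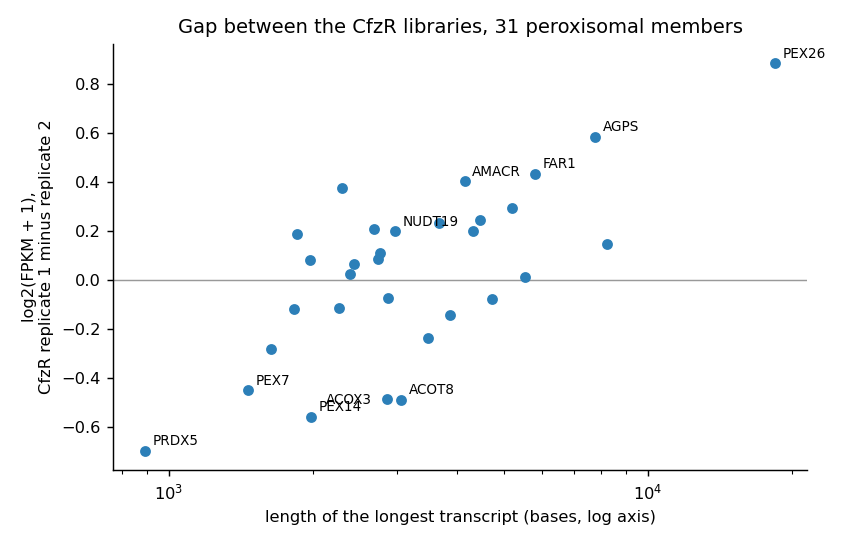
Length of the longest transcript in bases (x axis, log scale) against the difference in log2(FPKM + 1) of CfzR replicate 1 minus CfzR replicate 2 (y axis) for the 31 members, each a point. The gap runs from -0.70 for the short PRDX5 to 0.89 for the long PEX26.

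A second list of 57 peroxisomal genes outside the set was read from the same fit, and 41 of them were measured. None of the 41 passed in limma, 4 had a positive and 4 a negative log2 fold change at an unadjusted p under 0.05 (19.5%, against 11.1% of all genes tested), and the median log2 fold change was 0.059. EHHADH, the bifunctional enzyme of peroxisomal beta-oxidation, had 3.18 and 2.56 FPKM in CfzR against 0.916 and 0.595 FPKM in WT. It averaged 2.87 ± 0.445 FPKM in CfzR and 0.756 ± 0.227 FPKM in WT, a ratio of 3.80 with groups that did not overlap (SD, n = 2 each; log2 fold change 1.14, SE 0.25, limma adjusted p = 0.167). It had the smallest p of this list, lies on chromosome 3 (185190624 to 185281990) and had a larger log2 fold change than any member. Its WT mean lay below the filter of 1 FPKM, so EHHADH was tested only through its level in CfzR. At these low levels its log2 fold change depended on the pseudocount, with 1.81 at a pseudocount of 0.1 and 0.45 at 5.

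The next genes of that list in order of p were TYSND1, GSTK1 and ISOC1. TYSND1, the protease that processes imported enzymes, had 13.3 and 15.5 FPKM in CfzR against 21.6 and 23.6 FPKM in WT (limma adjusted p = 0.316). GSTK1, a glutathione transferase of mitochondria and peroxisomes, had 76.9 and 112 FPKM in CfzR against 155 and 163 FPKM in WT (limma adjusted p = 0.328). ISOC1, a protein found in peroxisomes, had 33.7 and 33.4 FPKM in CfzR against 24.0 and 21.5 FPKM in WT (limma adjusted p = 0.358). The groups did not overlap for any of these 3, and their log2 fold changes were -0.62 for TYSND1, -0.77 for GSTK1 and 0.54 for ISOC1. With the replicate number as a block, EHHADH, TYSND1 and GSTK1 passed (limma adjusted p = 0.00254, 0.0442 and 0.0137), as did 9.26% of all genes tested, and 0 of the 31 members passed.

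PPARs, nuclear receptors that drive many peroxisomal genes in liver, were read apart with their partners. Of 7 regulators, 5 passed the filter on low values, and 0 of these passed in limma and 0 had an unadjusted p under 0.05. PPARG had 71.4 and 71.8 FPKM in CfzR against 76.7 and 70.8 FPKM in WT, and PPARA had 4.92 and 5.33 FPKM in CfzR against 4.62 and 6.47 FPKM in WT. Both pairs of groups overlapped. RXRA, the partner receptor of PPARs, had 12.3 and 9.78 FPKM in CfzR against 16.1 and 14.8 FPKM in WT (log2 fold change -0.45, SE 0.20, limma adjusted p = 0.474). The coactivator NCOA1 had 4.43 and 4.04 FPKM in CfzR against 3.53 and 3.03 FPKM in WT (log2 fold change 0.29, limma adjusted p = 0.621). The groups did not overlap for RXRA, which was lower in both CfzR libraries, or for NCOA1, which was higher in both. The coactivators PPARGC1A and PPARGC1B did not pass the filter, and PPARGC1A had 1.498 and 0.895 FPKM in CfzR against 0.609 and 0.459 FPKM in WT. These regulators were named after their values were seen.

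By position, none of the 31 members lies on chromosome 7, and they fall on 15 chromosomes in GENCODE release 29 (GRCh38), matched by gene ID. CROT spans 87345681 to 87399795 on chromosome 7. Of the second list, FIS1, a fission factor at 101239458 to 101252316 on that chromosome, and GSTK1, at 143244093 to 143270854, had log2 fold changes of -0.35 and -0.77, and neither passed. FIS1 was named after its values were seen.

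Over the libraries as a whole, 47 of 13411 genes passed in limma, 33 higher and 14 lower in CfzR, an excess that turned with the replicate block (487 higher and 755 lower) and without WT replicate 1 (118 higher and 142 lower). Correlations of log2 values across genes were 0.968 between the CfzR libraries and 0.983 between the WT libraries. Of 10 plasma cell markers, 9 were measured, with summed levels of 6134 to 6700 FPKM in CfzR and 5915 to 5990 FPKM in WT, which shows plasma cell genes at high levels in both groups. The sum of KRT8 and KRT18, the measured epithelial markers, was 2.10 to 3.70 FPKM in CfzR and 6.28 to 6.79 FPKM in WT. Other markers of epithelium and the markers fixed for hepatocytes, mature B cells, T and NK cells, myeloid cells and stroma are not analysed here.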

How the data were processed

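The authors deposited 1 table of FPKM values with 1 column per library and 15201 Ensembl gene IDs. Per the submitters' processing notes the tools were STAR and Cufflinks, and tool versions, build, annotation and strand setting were not given in the sources used here. Columns were tied to libraries by the drug's abbreviation and replicate number, and the control columns were taken as WT, the only other group. FPKM holds no counts, so the depth is unknown and counting error cannot be stated.

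Symbols were matched by gene ID. Genes averaging at least 1 FPKM over the 4 libraries (13411) were transformed to log2(FPKM + 1) and fitted with limma 3.58.1 in R 4.3.3 (eBayes with trend), two-sided, with Benjamini-Hochberg adjustment over all genes tested and a threshold of 0.05. Intervals are 95% per gene, not adjusted. With 2 libraries per group a permutation test cannot reach the threshold. The procedure was tested on simulated data. All 31 measured members passed the filter. Transcript length, GC share and positions come from GENCODE release 29. Exons of 12 members overlap another gene of the table, whose reads may be shared, and NUDT19 and FAR1 have 3 and 1 pseudogenes named after them there.

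The members and lists were chosen with earlier results of these data known, and CROT was chosen for its change. Named with all values were the members with the largest absolute log2 fold changes without overlap (up to 12), the highest of each role, defining genes of each role, and the 4 genes of the second list with the smallest p. Other members were named to account for the whole set. Alternatives were pseudocounts of 0.1 and 5, no filter or a filter at 5 FPKM, trimmed-mean (TMM) and quantile scaling, no trend, a replicate block, leaving out each library, a length and GC correction, and thresholds of 0.01 and 0.1. Some results are not reported here.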

Additional observations from a re-analysis of the deposited data

How the results depend on the processing

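The count of members past the threshold was 0 under every alternative run, and CROT passed under each, with log2 fold changes of 2.67 (pseudocount 5) to 4.02 (pseudocount 0.1). The count over all genes, 47, was 27 with a filter at 5 FPKM, 15 and 96 at thresholds of 0.01 and 0.1, 16 to 260 with 1 library left out (16 without CfzR replicate 1, 17 without CfzR replicate 2, 260 without WT replicate 1, with 118 higher and 142 lower, 148 without WT replicate 2; the lone library is assumed to vary like the other group), and 1242 with the replicate block, 487 higher and 755 lower. The replicate numbers name no shared culture in the labels, and the deviations of same-numbered libraries correlated at 0.252 over 2 pairs. With the replicate block 3 other peroxisomal genes passed and 0 members did, with 1 residual degree of freedom per gene.

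The members' median log2 fold change was -0.0054 to 0.14 with 1 library left out (lowest without CfzR replicate 1). Corrected for length and GC share it was -0.040. The peroxins' median was 0.059 to 0.14 with 1 library left out and -0.019 after the correction, and that of the enzymes was -0.0080 to 0.17 and -0.070. Under the correction 6 members turned negative, with log2 fold changes of -0.040 for GNPAT, -0.12 for PEX2, -0.20 for AGPS, -0.10 for FAR1, -0.019 for PEX13 and -0.11 for LONP2. With 1 library left out, the log2 fold changes that crossed 0 ran over SCP2 -0.0054 to 0.29, GNPAT -0.067 to 0.14, PEX14 -0.16 to 0.40, PEX2 -0.063 to 0.14 and AGPS -0.24 to 0.35. Likewise, without CfzR replicate 1 the values were -0.011 for NUDT19, -0.047 for LONP2 and 0.049 for ACOX3, and without CfzR replicate 2 that of PEX26 was 0.41. LONP2 also stood at -0.066 without WT replicate 2 and at -0.0024 under quantile normalization, and PEX26 at 0.040 without WT replicate 1 and at 0.0021 with a pseudocount of 5. None of these members passed in any setting. The cause was not tested. The largest SEs of the log2 fold change were 0.34 for PRDX5 and 0.32 for PEX26.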
